A study of Mus musculus with 2 samples.

Results

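The 8 mouse genes described here are genes of cellular zinc handling, followed across the cell types of the cortex and in single astrocytes. They are Mt1, Mt2 and Mt3, the metallothioneins of the brain, Mtf1, their metal-sensing activator, and 4 membrane transporters, Slc30a1, Slc30a10, Slc39a12 and Slc39a14. Each was found by its symbol among the 32285 genes of the deposited tables, and all 8 had exactly 1 entry. They were chosen with results from these libraries already known, so every ratio below describes these libraries and supports nothing beyond them. The study compared dissociated cortical cells from male mice aged 4 months, wild type or knockout for Fam69c, which the tables list as Dipk1c, a gene for a kinase-like protein of the secretory pathway. The labels do not describe the knockout allele or the strain. Cortices were pooled by genotype, and the labels name 7 mice without saying whether that is the number for each genotype. Cells were stained with 7-AAD, a dye that enters dead cells, and sorted. There was 1 library per genotype, so genotype and pool cannot be told apart, no test could be made, and each interval is an exact 95% one for the error of counting alone.

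Metallothioneins are very small, cysteine-rich proteins that bind zinc and copper and buffer the free ions. When free zinc rises, the zinc-finger factor encoded by Mtf1 moves to the nucleus and binds metal response elements, which in textbook accounts lie upstream of Mt1, Mt2 and the zinc exporter gene Slc30a1. Transporters of the Slc30 family carry metal out of the cytosol and those of the Slc39 family carry it in. In the brain, Mt1 and Mt2 are known mainly from astrocytes, and Mt3 is the brain-enriched member of the family.

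The 3 metallothionein genes lay in a row on the plus strand of chromosome 8 (GRCm38, GENCODE M21), Mt3 at 94152607 to 94154146, Mt2 at 94172664 to 94173568 and Mt1 at 94179082 to 94180327. The gap from Mt3 to Mt2 was 18517 bases and that from Mt2 to Mt1 was 5513 bases. Mt4, the family member of squamous epithelium, begins upstream at 94137197 and had no UMI in astrocyte-like cells of either library. The sequences just upstream of 4 members are shown because the metallothioneins were higher together in the knockout library and Slc30a1 was not. They are from RefSeq (GRCm38.p6), 5′ to 3′ on the plus strand, and end at the start site of the RefSeq entry or before the first annotated exon base of the gene. Capitals mark matches to the core of the metal response element, searched as TGCACNC and TGCGCNC on both strands.
Mt2, chr8:94172368-94172617: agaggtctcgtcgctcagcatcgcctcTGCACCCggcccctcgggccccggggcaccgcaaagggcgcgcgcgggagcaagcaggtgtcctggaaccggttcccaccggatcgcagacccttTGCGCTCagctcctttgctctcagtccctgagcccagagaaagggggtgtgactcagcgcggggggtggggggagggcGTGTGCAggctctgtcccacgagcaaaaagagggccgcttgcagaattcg
Mt1, chr8:94178839-94179081: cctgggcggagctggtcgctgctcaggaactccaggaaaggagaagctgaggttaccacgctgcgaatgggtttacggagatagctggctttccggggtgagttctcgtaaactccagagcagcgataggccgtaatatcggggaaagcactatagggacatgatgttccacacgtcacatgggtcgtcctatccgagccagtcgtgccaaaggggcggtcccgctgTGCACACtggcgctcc
Mt3, chr8:94152357-94152606: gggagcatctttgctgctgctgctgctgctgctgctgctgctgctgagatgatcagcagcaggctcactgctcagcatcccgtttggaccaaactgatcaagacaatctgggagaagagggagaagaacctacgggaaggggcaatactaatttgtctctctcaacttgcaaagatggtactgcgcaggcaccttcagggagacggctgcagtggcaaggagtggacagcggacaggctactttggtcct
Slc30a1, chr1:191906531-191906766: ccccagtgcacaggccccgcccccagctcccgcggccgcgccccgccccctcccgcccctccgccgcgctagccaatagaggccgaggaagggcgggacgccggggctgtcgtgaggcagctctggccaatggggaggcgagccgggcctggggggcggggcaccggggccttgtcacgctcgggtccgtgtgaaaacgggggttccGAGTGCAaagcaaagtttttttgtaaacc

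In the 250 bases upstream, Mt2 held 3 matches, Mt1 held 1, Slc30a1 held 1 and Mt3 held 0. The first bases of the Mt2 matches lay at -223, -128 and -50 from the RefSeq start, and those of Mt1 and Slc30a1 at -23 and -43. Of 32851 mouse promoter windows of this length, 21.4% held at least 1 match and 1.26% held at least 3. Slc30a10 also held 3, of which a pair on opposite strands overlap, and Mtf1 and Slc39a12 held 0. The table covered 7 of the 8 members and had no entry for Slc39a14. The annotation places other starts further downstream, up to 152 bases from the RefSeq start for Mt1, 242 for Mt2, 139 for Mt3 and 475 for Slc30a1, so each window shown is not the one next to those starts. A match in these letters is a description and shows no binding.

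The wild-type library kept 4940 cells and the knockout library 7032 after filtering, with medians of 8580 and 8449 unique molecular identifiers per cell (UMIs, 1 for each transcript captured). Both libraries shared 17 cell barcodes. Cells were assigned to types with fixed marker lists that hold none of the 8 genes, and 12 types had at least 20 cells in each library. The thresholds of that gate were set after the data were seen. The largest class, astrocyte-like cells, held 1765 wild-type and 3677 knockout cells and had a median of 7 of its 8 markers above the level of the average cell. Of its cells, 403 passed at the lowest accepted share of markers or the smallest accepted lead over the next type. A further 817 cells were nearest to astrocytes but stayed ungated. The wild-type astrocyte-like cells were deeper, with a median of 13106 UMIs against 9315. Their mitochondrial shares were close (medians 4.42% and 4.48%), as was the summed level of 12 immediate early genes (401 and 394 CPM, UMIs scaled to a total of 1e6). Hemoglobin made up 0.208% and 0.134% of their UMIs. Dipk1c itself was at 61.1 CPM in the wild-type astrocyte-like cells (57.9 to 64.4) and 33.9 in the knockout (31.9 to 35.9). Its transcript was thus lower but still counted. The allele is not described, and the source of the remaining UMIs was not tested.

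In astrocyte-like cells all 3 metallothioneins were higher in the knockout library, and the regulator and 3 of the 4 transporters were lower. Slc39a12, the other one, lay close to a ratio of 1. Levels are in CPM of the class, and each ratio divides the knockout level by the wild-type one. Mt1 was at 3875 CPM in the wild-type library (3849 to 3901) and 8960.0 in the knockout (8928 to 8992), a ratio of 2.31 (2.29 to 2.33). Mt2 was at 584 and 1437 CPM, a ratio of 2.46 (2.41 to 2.51). Mt3 was at 3586 and 5808 CPM, a ratio of 1.62 (1.61 to 1.63). Among the 12045 genes with at least 100 UMIs in this class, ordered from the highest ratio, Mt2 was 17th, Mt1 was 22nd and Mt3 was 153rd. With a fold of 1.5 taken as the limit, 3 of the 8 members lay above it against 2.42% of all genes, and 0 of 8 lay below its inverse against 7.55%. The median log2 ratio of all genes was -0.09, and trimmed mean scaling put the centre at -0.13. Because the members were chosen with these values known, nothing is read from that comparison. Mt2 overlaps the antisense gene Gm45774, which had 33 and 53 UMIs in these cells beside 13106 and 48336 for Mt2, and the sources used here do not say whether the counting used strand. Of the 31-base words in the transcripts of Mt1 and Mt3, 0 occurred in another gene's transcripts, and 0.524% of those of Mt2 did, so the 3 genes do not share reads with each other through such words.

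**Figure D1:**
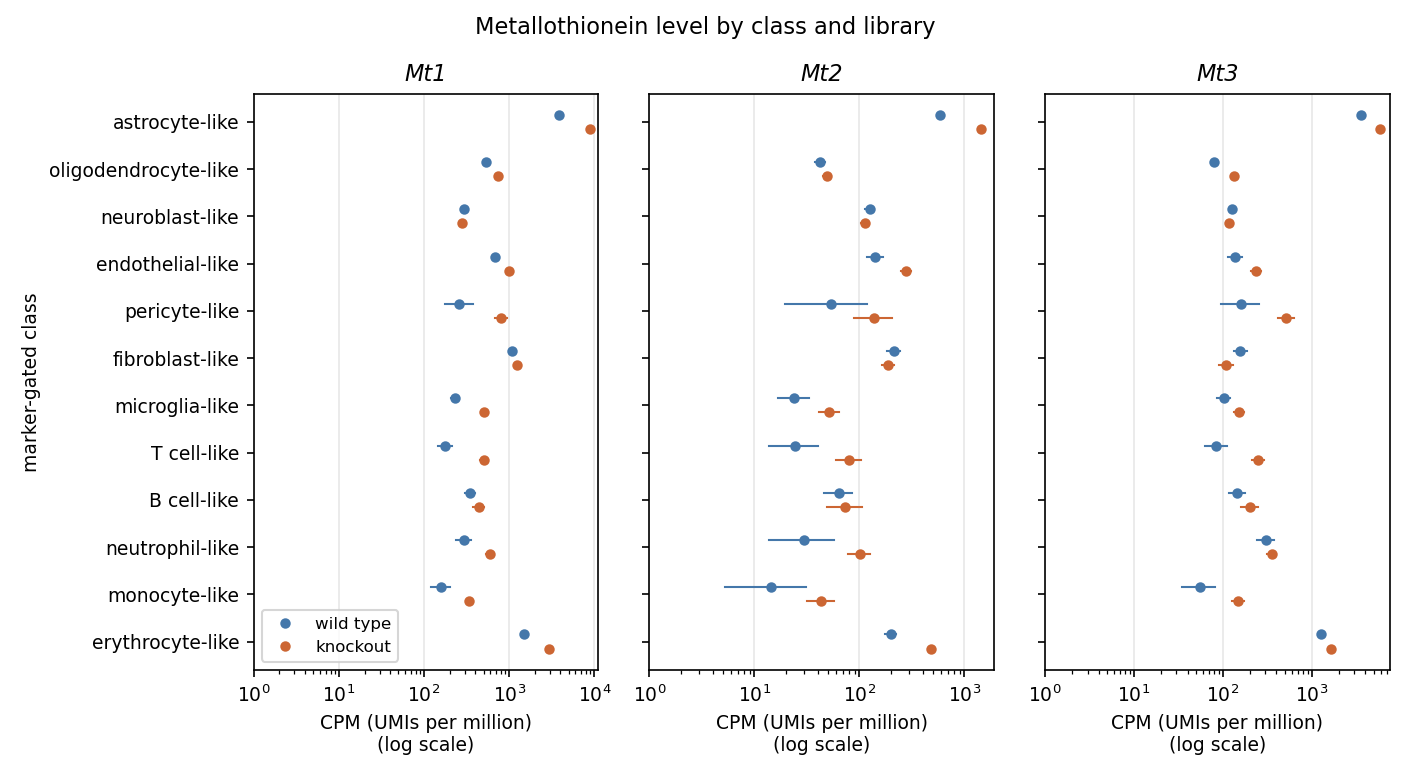
Level of Mt1, Mt2 and Mt3 in 12 marker-gated classes (CPM of the class, log axis), 1 point per library, with bars for exact 95% Poisson intervals. Astrocyte-like cells were the highest class for each gene in both libraries, and there the knockout point lies to the right of the wild-type point, for example at 8960.0 against 3875 CPM for Mt1.

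The higher level was spread over most astrocyte-like cells rather than held by a few. To set cells of unlike depth side by side, each cell was thinned to 5000 UMIs, which kept 1563 wild-type and 3060 knockout cells and left out 202 and 617 shallower ones. Per thinned cell, Mt1 had a median of 17 UMIs in the wild-type library (10th to 90th percentile 6 to 32) and 43 in the knockout (22 to 69). Of the knockout cells, 94.3% had more Mt1 than the wild-type median and 72.8% more than the wild-type 90th percentile, while 0.425% lay under the wild-type 10th percentile. The distributions still overlapped, and the highest count in 1 cell was 88 UMIs among wild-type and 165 among knockout cells. Mt2 had medians of 2 and 7 UMIs per thinned cell, and 89.4% of knockout cells exceeded the wild-type median. It was detected in 86.0% of thinned wild-type cells and 98.8% of knockout cells, against 91.6% and 96.3% before thinning. Mt3 had medians of 17 and 29 UMIs, and 84.9% of knockout cells exceeded the wild-type median.

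Relative spread between cells was smaller in the knockout library for all 3 genes. The coefficient of variation of Mt1 was 0.578 in thinned wild-type cells and 0.429 in knockout cells, that of Mt2 was 0.819 and 0.589, and that of Mt3 was 0.479 and 0.395. Part of a coefficient of variation is counting noise, which shrinks as the mean grows. The variance left beyond counting, as a share of the squared mean, was 0.280 and 0.162 for Mt1, 0.304 and 0.207 for Mt2, and 0.171 and 0.121 for Mt3. The 10% of cells with the most Mt1 held 21.9% of the wild-type and 18.5% of the knockout UMIs of the gene, so no small set of cells carried its level.

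**Figure D2:**
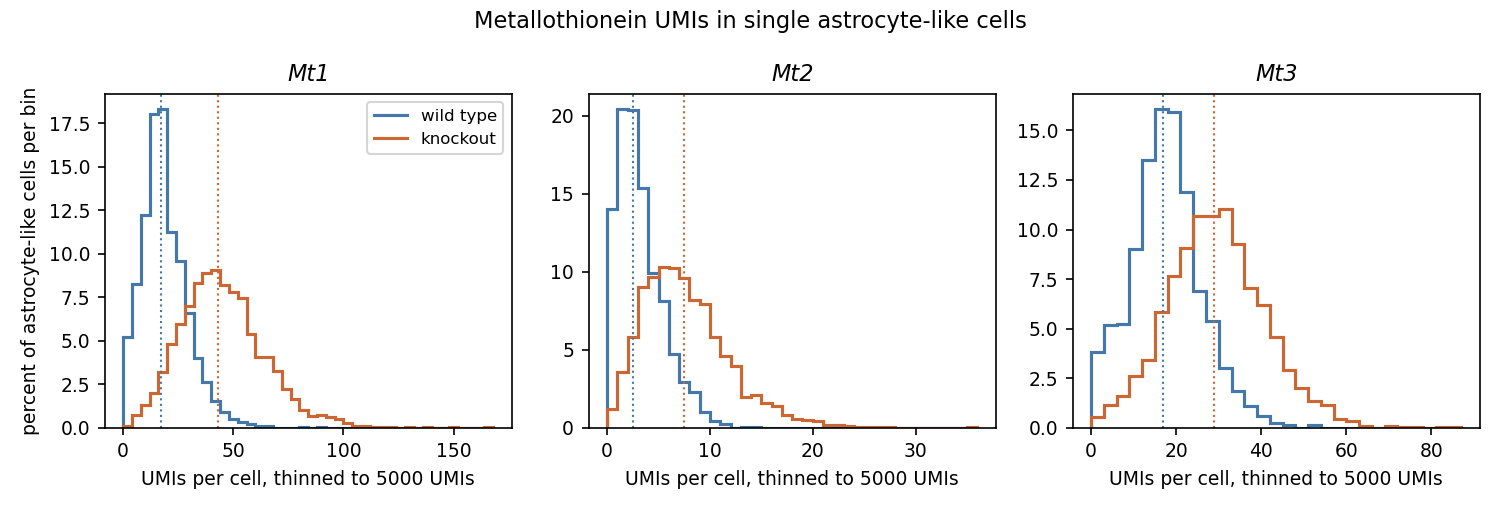
Distribution of Mt1, Mt2 and Mt3 UMIs over single astrocyte-like cells thinned to 5000 UMIs, as the percent of cells of each library per bin (bins of 4, 1 and 3 UMIs for the 3 genes), with dotted lines at the medians. The knockout curves are shifted to the right as a whole, with medians of 43 against 17 UMIs for Mt1, 7 against 2 for Mt2 and 29 against 17 for Mt3.

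Within each library the metallothioneins varied together from cell to cell. Pearson's r over thinned cells was 0.49 for wild-type and 0.59 for knockout cells for Mt1 with Mt2, 0.69 and 0.67 for Mt1 with Mt3, and 0.37 and 0.39 for Mt2 with Mt3 (n = 1563 and 3060 cells, which share a library). Such values were not particular to the family. Mt1 with Aldoc, an enzyme of glycolysis, gave 0.62 and 0.55. That is above Mt1 with Mt2 in wild-type cells, below it in knockout cells, and below Mt1 with Mt3 in both. Mt1 with Mtf1 gave 0.02 and 0.03, and these counts of Mtf1 are too sparse for a reading. Mt1 in thinned cells was also higher in cells deeper before thinning, with r of 0.43 and 0.26, and was lower in cells with a higher mitochondrial share, with r of -0.33 and -0.17. With the immediate early genes, a sign of dissociation stress, its r was 0.06 and 0.13.

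The ratio of Mt1 stayed above 1 in each range of depth, mitochondrial share and Gfap status examined. Its log2 ratio was 0.91 in cells under 5000 UMIs, 1.82 from 5000 to 10000, 1.25 from 10000 to 20000 and 1.04 in deeper cells. The value of 1.82 came with a low wild-type level, 2421 CPM in 286 cells, against 8542 in 1519 knockout cells. For Mt2 the log2 ratios in the same ranges were 1.10, 1.81, 1.33 and 1.19. Mt3 gave 0.30, 1.27, 0.73 and 0.49, which is under 1.5-fold in the shallowest and the deepest cells. Mt1 differed about equally in cells without a Gfap UMI (log2 ratio 1.20) and with one (1.23). Gfap encodes the filament protein that marks reactive astrocytes.

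The regulator and the exporters were lower in the knockout astrocyte-like cells. On GRCm38, Mtf1 lies on chromosome 4 (124802104 to 124849800), Slc30a1 and Slc30a10 on chromosome 1 (191906767 to 191913247 and 185454848 to 185468762), Slc39a12 on chromosome 2 (14388316 to 14494977) and Slc39a14 on chromosome 14 (70303469 to 70351425). All but Slc39a14 are on the plus strand. Mtf1 was at 13.4 CPM for wild-type and 10.9 for knockout cells, from 301 and 365 UMIs, a ratio of 0.809 (0.693 to 0.946). It overlaps the antisense gene 1110065P20Rik, which had 1406 and 2742 UMIs in these cells, so its level is uncertain. Slc30a1, the exporter of the plasma membrane and itself a known Mtf1 target, was at 53.9 CPM (50.9 to 57.1) and 37.4 (35.3 to 39.5), a ratio of 0.693 (0.640 to 0.750). Slc30a10, an exporter best known for manganese, was at 227 CPM (221 to 233) and 179 (175 to 184), a ratio of 0.790 (0.761 to 0.820). It overlaps the antisense gene Gm2061 (112 and 122 UMIs beside 5097 and 6034). These 3 genes thus lay on the other side of 1 from Mt1 and Mt2.

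The importers were split. Slc39a12, a zinc importer of the brain, was at 411 CPM in the wild type (403 to 420) and 401 in the knockout (394 to 408), with an interval of the ratio from 0.949 to 1.00. Its direction depends on the scaling, since its log2 ratio was -0.04 as given and 0.10 with trimmed mean scaling. Slc39a14, which carries zinc, manganese and iron into cells, was at 29.8 and 23.6 CPM, a ratio of 0.791 (0.713 to 0.878). After thinning to 5000 UMIs the mean per cell of Slc39a12 was 2.05 UMIs in both libraries, and 83.7% and 84.0% of cells had at least 1. The shares of cells with a UMI of the rarer genes followed depth closely. For Slc30a1, 43.4% and 26.8% of cells had a UMI as sequenced, against 20.9% and 17.2% after thinning. For Slc39a14 the shares were 29.7% and 18.5% before, and 13.8% and 10.5% after.

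The ratio between the libraries depended on transcript length over all genes, and the members stand at opposite ends of that range. Genes were ordered by their longest GENCODE M21 transcript and split into 10 equal bins. The shortest bin (168 to 1346 bases), which holds Mt1, Mt2 and Mt3, had a median log2 ratio of 0.35, and the longest, which holds Mtf1, had -0.42. Within that bin of 1205 genes, Mt2 was 3rd, Mt1 was 5th and Mt3 was 51st from the highest ratio, and 9.63% of these genes were past the 1.5-fold limit. Less the median of their own bin, the log2 ratios were 0.86 for Mt1, 0.95 for Mt2 and 0.34 for Mt3, and Mt3 was then under the limit. The lower levels of the long members were near the medians of their bins. Slc39a14 was at -0.34 beside a median of -0.26, Slc30a10 at -0.34 beside -0.33, and Mtf1 at -0.31 beside -0.42. Slc30a1, at -0.53 beside -0.26, was 165th from the lowest of 1204. What part of any ratio this trend makes was not tested.

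**Figure D3:**
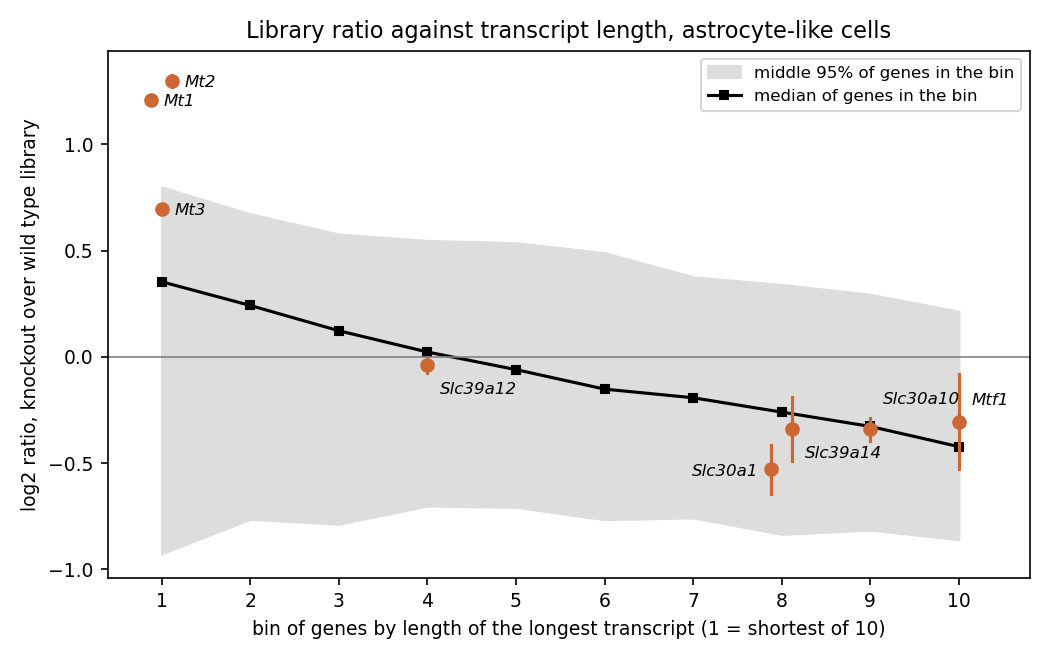
Log2 ratio of the libraries in astrocyte-like cells against the bin of genes by transcript length (1 is the shortest of 10), with the median (squares) and the middle 95% (grey) of genes in each bin and the 8 members in orange with 95% counting intervals. Mt1 and Mt2, at 1.21 and 1.30, lie above the grey band of the shortest bin, Mt3 at 0.70 lies inside it, and the transporters and Mtf1 lie inside the band of their own bins.

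In the 11 other described classes the metallothioneins were counted at lower levels, and their ratios were mixed. Astrocyte-like cells held 81.2% of all Mt1 UMIs of the wild-type library and 90.6% of those of the knockout, and 86.6% and 92.7% of those of Mt3. Library totals thus mix the level per cell with the larger share of astrocyte-like cells in the knockout library, 52.3% against 35.7%. Mt1 had at least 100 UMIs over both libraries in all 12 classes and was higher in the knockout library in 11, past 1.5-fold in 7. Mt3 was higher in 10 of 12, past 1.5-fold in 6, and Mt2 in 5 of the 7 classes with 100 UMIs, past 1.5-fold in 4. The classes share the 2 libraries, so these counts are not independent. Over all genes with 100 UMIs in a class, 0.938% (neuroblast-like) to 17.9% (pericyte-like) were past 1.5-fold higher. The genes higher at all ranged from 425 of 1164 in neutrophil-like to 241 of 380 in pericyte-like cells.

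RNA freed from broken astrocytes can add UMIs to any droplet, and its level was followed with 6 astrocyte genes outside the gate (Cldn10, Luzp2, Btbd17, Fjx1, Cxcl14 and Nkain4), chosen after the data were seen. In the 10 classes other than astrocyte-like and erythrocyte-like cells, their summed level was 1.40% to 7.23% of the astrocyte level in wild-type cells, and 2.41% to 9.01% in knockout cells. Mt3 lay in the same range, 1.53% to 8.44% and 1.86% to 8.81%. Cldn10, Cxcl14 and Fjx1 are among the 5 genes most like Mt3 over these class levels (r of 0.98, 0.96 and 0.96). The likeness of Mt3 to this set is therefore not an independent result. Mt1 reached further, 4.05% to 27.8% and 3.16% to 13.9%. In each class the part of free RNA in the ratio was not tested.

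In oligodendrocyte-like cells (616 and 801 cells), Mt1 was at 538 CPM in the wild type (523 to 553) and 747 in the knockout (730.2 to 764), a log2 ratio of 0.47. That is 13.9% and 8.34% of the astrocyte level, where the 6 astrocyte genes were at 2.54% and 2.98%. Mt3 there was at 78.7 and 133 CPM, 2.19% and 2.29% of its astrocyte level. For every 100 Mt1 UMIs these cells held 14.6 and 17.8 of Mt3, while astrocyte-like cells held 92.5 and 64.8, so the 2 genes did not stand in the astrocyte ratio. Past 1.5-fold higher were 2 of 7 members, Mt3 and Slc39a12, against 2.09% of genes. Slc39a12 was at 1.53% and 2.93% of its astrocyte level, as low as the astrocyte genes. When each oligodendrocyte-like cell is weighed the same, the log2 ratio of Mt3 turns from 0.76 to -0.19 and that of Slc39a12 goes from 0.90 to 0.47. With no filter on cells they were 0.31 and 0.58, both under the limit.

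Among vascular cells, endothelial-like cells (151 and 256) had Mt1 at 687 CPM (635 to 743) and 995 (934 to 1060). Their Mt2 was at 140 CPM (117 to 167) and 279 (247 to 314), a ratio of 1.99 (1.61 to 2.47), and was 20.4 and 28.0 UMIs per 100 of Mt1 against 15.1 and 16.0 in astrocyte-like cells. The astrocyte genes were at 2.49% and 3.87% of their astrocyte level there. Past 1.5-fold were 2 of 4 members, Mt2 and Mt3, against 3.80% of genes. Neither call held under every alternative. Of Mt2, the log2 ratio went from 0.99 to 0.03 in cells thinned to 1 depth and to 0.58, just under the limit, when each cell was weighed the same. That of Mt3 went from 0.76 to 0.42 with thinning and turned to -0.13 with clusters in place of the gate. Pericyte-like cells numbered 29 and 59, and their Mt1 rested on 29 and 145 UMIs (261 and 798 CPM). Past 1.5-fold were 2 of 3 members, Mt1 and Mt3, against 17.9% of genes, and their astrocyte genes were at 3.81% and 7.13%. With clusters in place of the gate these log2 ratios went from 1.62 to 0.55 and from 1.66 to -0.17. Fibroblast-like cells (47 and 102, led by Mgp, Ccn3 and Igfbp6) had Mt1 at 1078 and 1247 CPM, above all other described classes but astrocyte-like and erythrocyte-like cells in both libraries. Mt2 in them was 214 and 188 CPM and Mt3 158 and 108, and 0 of 3 members were past 1.5-fold higher against 3.76%. The astrocyte genes were at 3.22% and 2.41% in these cells.

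In immune cells the Mt1 level was low and mostly higher in the knockout library. Microglia-like cells (260 and 330) had Mt1 at 228 CPM (205 to 253) and 503 (467 to 540), a ratio of 2.20 (1.94 to 2.51), with astrocyte genes at 2.22% and 3.33% of the astrocyte level and Mt1 at 5.89% and 5.61%. Past 1.5-fold were 2 of 3 members, Mt1 and Mt2, against 4.91% of genes. The call of Mt2 was lost in thinned cells (log2 ratio 0.58) and with each cell weighed the same (0.31), from 1.12. Mt1 went from 1.14 to 0.68 with thinning, and Mt3, at 0.56, turned to -0.85. These thinned values are 1 random draw to 2000 UMIs per cell, and draws differed. Other draws gave mean Mt2 UMIs of 0.056 for wild-type and 0.093 for knockout microglia-like cells, and of 0.061 and 0.066. For Mt3 they gave 0.352 and 0.251, and 0.327 and 0.260. In the last of these, 1 wild-type cell held 23 of the 64 wild-type Mt3 UMIs. T cell-like cells had Mt1 at 176 and 505 CPM and Mt3 at 84.7 and 248, both past 1.5-fold against 4.59% of genes, and B cell-like cells had Mt1 at 349 and 440 with 0 of 2 past it against 2.41%. In neutrophil-like cells Mt1 was at 293 and 588 CPM, 1 of 2 members past the limit against 6.79%. Monocyte-like cells had Mt1 at 157 and 341 CPM, with 2 of 2 members past it against 7.18%. The astrocyte genes were at 3.60% and 4.96% of the astrocyte level in T cell-like, 4.71% and 4.11% in B cell-like, 7.23% and 9.01% in neutrophil-like and 1.40% and 3.32% in monocyte-like cells. Erythrocyte-like cells had the next highest Mt1 after astrocyte-like cells, 1483 and 2944 CPM, together with astrocyte genes at 25.9% and 31.5% of the astrocyte level, and 3 of 5 members were past 1.5-fold against 8.68% of genes. Their median depth was 1300.0 UMIs for wild-type and 15832 for knockout cells.

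In neuroblast-like cells, young neurons and their dividing precursors, the summed levels of the libraries lay close together. Mt1 was at 292 CPM in the wild type (275 to 310.4) and 283 in the knockout (269 to 298), a ratio of 0.967 (0.894 to 1.05). Mt2 was at 125 and 113 CPM and Mt3 at 128 and 117, with astrocyte genes at 5.99% and 3.60% of their astrocyte level. Of 6 members 0 were past 1.5-fold higher against 0.938% of genes, and 1, Slc39a12 from 67 and 54 UMIs, was past it in the lower direction against 9.13%. When each cell is weighed the same, the log2 ratio of Slc39a12 goes from -0.86 to 0.01. Weighed so, the log2 ratios of Mt1, Mt2 and Mt3 were 0.59, 0.10 and 0.39 in place of -0.05, -0.15 and -0.12. With doublets kept they were 0.31, 0.04 and 0.28, and with trimmed mean scaling that of Mt1 was 0.11, so the closeness holds for the summed counts and their direction is not stable.

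Neuroblast-like cells held much Mt2 for their Mt1, 42.9 and 40.0 UMIs for every 100. A split by Top2a, an enzyme of dividing nuclei, was chosen after the data were seen. Cells with a Top2a UMI had Mt2 at 163 CPM in the wild type (147 to 180) and 143 in the knockout (131 to 156), and the others had 46.1 (34.6 to 60.2) and 53.5 (43.3 to 65.4). For Mt1, cells with Top2a had 347 CPM for wild-type and 291 for knockout cells, whereas the others had 177 (154 to 203) and 267 (243 to 292). The close pooled levels of Mt1 thus hold a lower level in the first set and a higher one in the second. Cells with Top2a were also deeper, with medians of 23598 and 19123 UMIs against 9089 and 6598, and made up 44.6% and 40.6% of the class. The part of depth in this split was not tested.

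Past 1.5-fold lower, there was 1 member, Slc39a12 in neuroblast-like cells, over all 12 classes. In the 10 classes other than that one and astrocyte-like cells the count was 0, against 3.97% of genes in oligodendrocyte-like, 5.73% in microglia-like, 4.74% in endothelial-like, 6.84% in pericyte-like and 9.11% in fibroblast-like cells. For the blood and immune classes the same share was 9.18% in T cell-like, 13.8% in B cell-like, 19.8% in neutrophil-like, 8.9% in monocyte-like and 6.43% in erythrocyte-like cells.

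**Figure D4:**
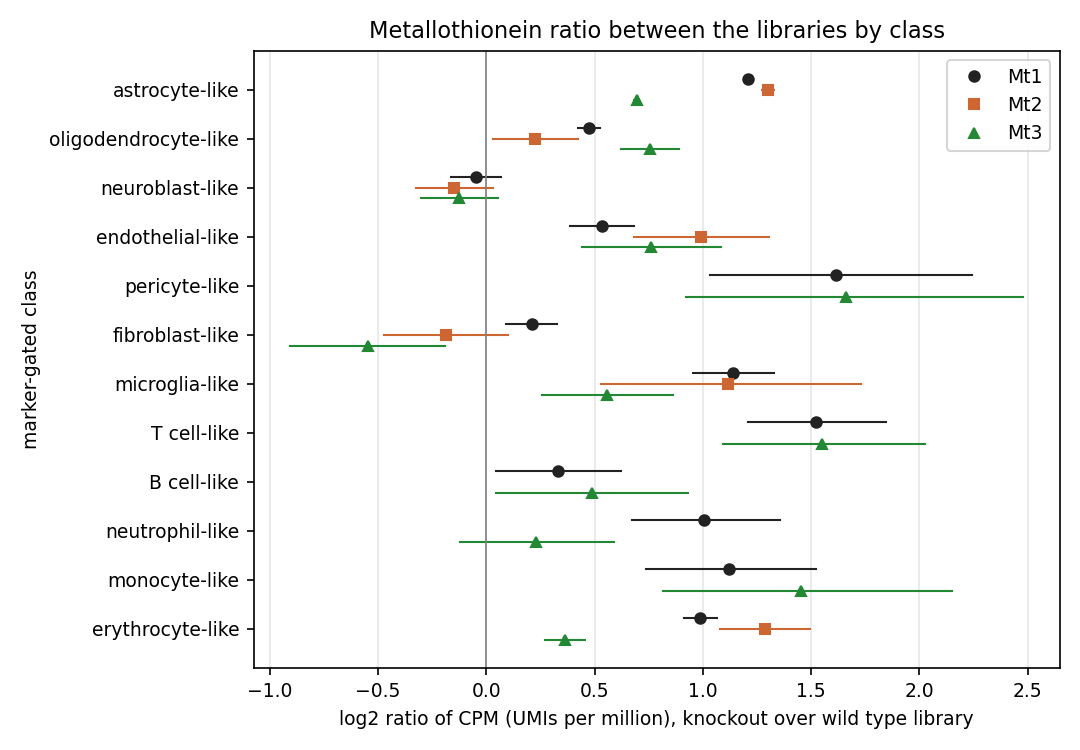
Log2 ratio (knockout over wild type) of Mt1, Mt2 and Mt3 by class, with bars for exact 95% counting intervals, for genes with at least 100 UMIs in the class. Astrocyte-like cells lie at 1.21, 1.30 and 0.70, neuroblast-like cells near 0 for all 3 genes in these summed counts, and the small classes have wide bars.

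Mtf1, Slc30a1 and Slc30a10 were each highest in a class other than astrocyte-like cells, in both libraries. Slc30a1 was highest in endothelial-like cells, at 437 CPM in the wild type (396 to 482) and 362 in the knockout (326 to 402), beside 53.9 and 37.4 in astrocyte-like cells. The ratio there was 0.828 (0.716 to 0.958), and 52.6% and 51.5% of cells thinned to 2000 UMIs had a UMI of it, against 10.3% and 6.88% of astrocyte-like cells. Slc30a10 was highest in pericyte-like cells, at 422 CPM (310.3 to 562) and 407 (320 to 511) from 47 and 74 UMIs, and next in astrocyte-like cells. It was at 1.80 and 2.84 CPM in oligodendrocyte-like cells and at 8.77 and 6.11 in endothelial-like cells, so the 2 exporters marked different cells of the vessel wall. The pericyte level was above that of astrocyte-like cells by more than the counting intervals in both libraries.

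Slc39a12 had 91.0% and 93.7% of its UMIs in astrocyte-like cells, and of the other described classes only erythrocyte-like cells reached 50 CPM. Slc39a14 was thinly counted in every class. Its astrocyte level was the highest point in both libraries, but its interval overlapped those of neutrophil-like and pericyte-like cells (5 and 0 UMIs) in the wild type. In the knockout it overlapped those of microglia-like (20.5 CPM), fibroblast-like (20.4) and pericyte-like cells (2 UMIs). Mtf1 was highest in oligodendrocyte-like cells, at 83.7 CPM in the wild type (77.8 to 89.9) and 74.3 in the knockout (69.0 to 79.9), where 54.0% and 50.6% of the Mtf1 UMIs of the library were found. All other described classes were at or below 32.9 CPM. The class with the most Mtf1 was thus not the one with the most metallothionein.

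**Figure D5:**
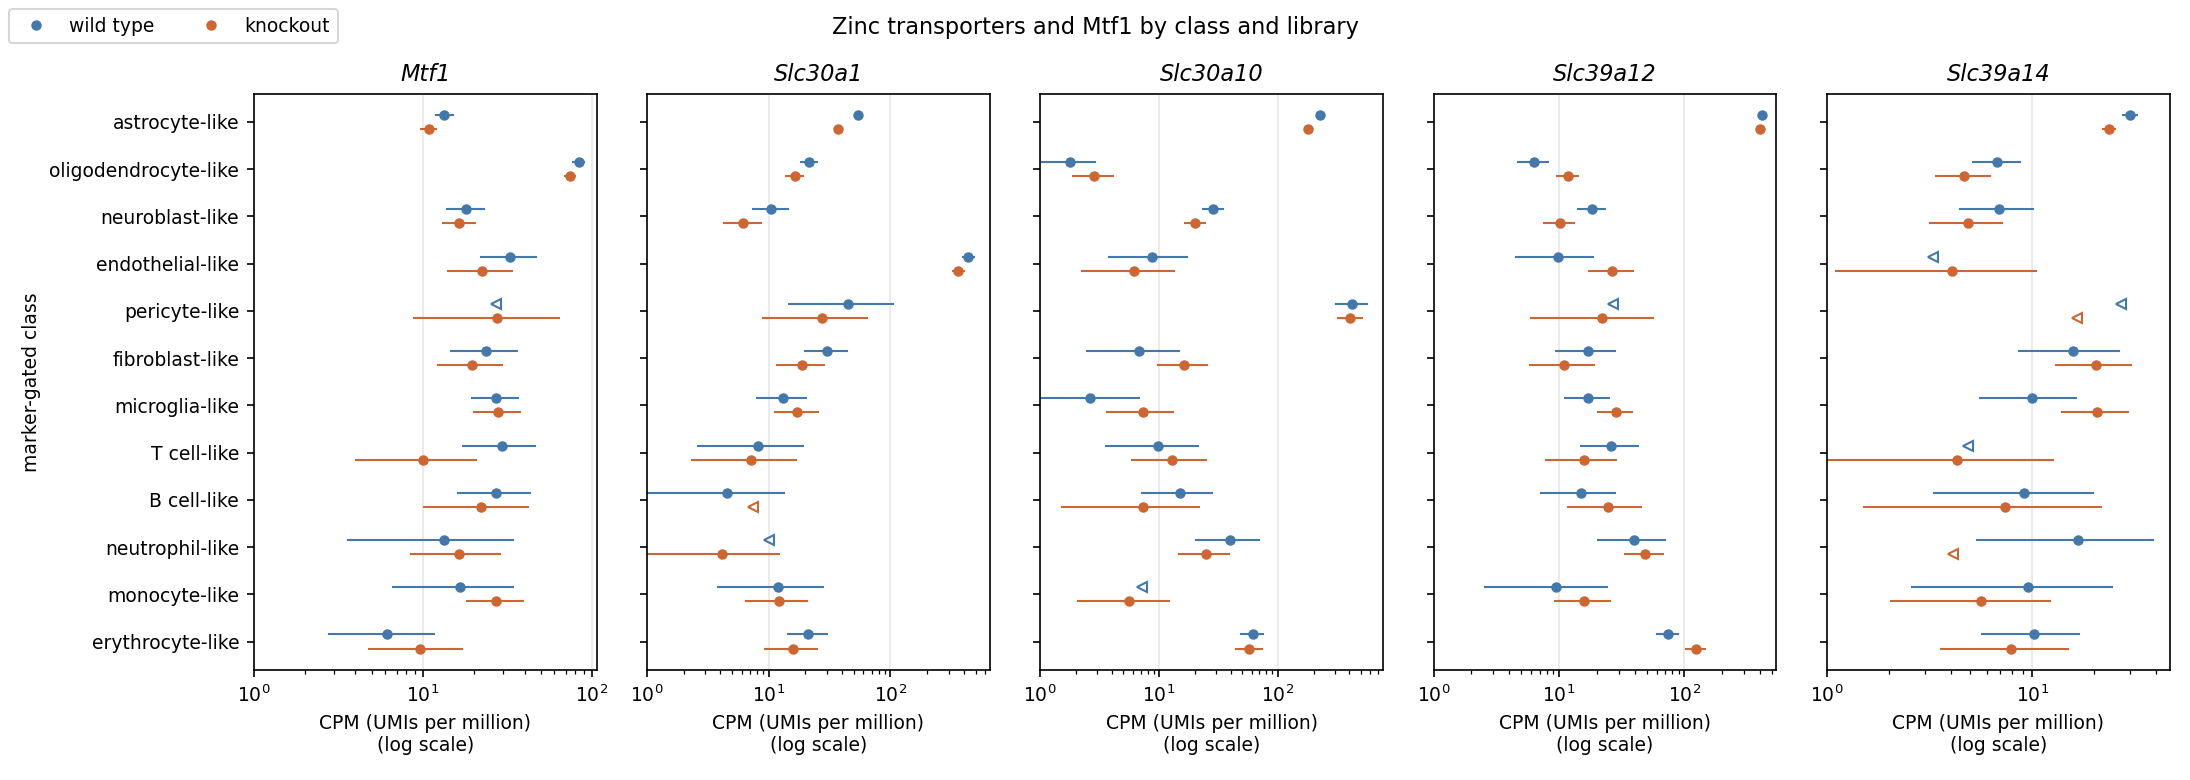
Level of Mtf1 and the 4 transporters in 12 marker-gated classes (CPM of the class, log axis), 1 point per library with exact 95% Poisson intervals. Open triangles mark the level of 3 UMIs where fewer were counted. Mtf1 peaks in oligodendrocyte-like, Slc30a1 in endothelial-like, Slc30a10 in pericyte-like and Slc39a12 in astrocyte-like cells, at 437 CPM for Slc30a1 in the wild type.

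Other genes of metal handling were split in direction. Of 48 further zinc, copper and iron genes, 40 had at least 100 UMIs in astrocyte-like cells, of which 16 were higher and 24 lower in the knockout. Their median log2 ratio was -0.06 beside -0.09 for all genes. Past 1.5-fold, 0 were higher and 4 were lower, against 2.42% and 7.55% of all genes, shares from which nothing is read for a list of 40. The 4 were Slc30a4, a zinc exporter of secretory vesicles (21.6 to 12.0 CPM), Slc39a2, an importer (4.54 to 2.56), Atp7a, the copper pump (19.6 to 12.3), and Slc40a1, the iron exporter ferroportin (4.81 to 2.91). With trimmed mean scaling, the counts were 3 higher and 3 lower. The naming rule also gave Fth1 and Ftl1, the chains of ferritin, at 1544 and 2235 CPM and at 371 and 536 CPM, ratios of 1.45 and 1.44. Atox1, a copper chaperone, was at 79.0 and 116 CPM, and Pcbp2, an iron chaperone, at 209 and 197. Of the other zinc exporters with 100 UMIs, 1 of 5 was higher, and of the other importers 2 of 9. Among all genes 4995 of 12045 were higher, and nothing is read from counts this small.

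The 6 genes most like Mt1 over single astrocyte-like cells have different roles. By the lower of the Pearson correlations in the 2 libraries over thinned cells, and among 6000 genes, these were Aldoc (0.55) and Gapdh (0.48), enzymes of glycolysis, Ckb (0.51), brain creatine kinase, Eif1 (0.50), a translation factor, Ppia (0.48), cyclophilin A, and Fth1 (0.47). The middle 95% of genes lay between -0.14 and 0.27 for wild-type cells and between -0.13 and 0.23 for knockout cells. At the other end stood Malat1 (-0.37 and -0.46), a nuclear RNA. These correlations share the library, the depth and the composition of each cell. All 6 genes were higher in the knockout library, with log2 ratios of 0.37 to 0.53, less than Mt1. Among all ranked genes of astrocyte-like cells, 4995 of 12045 were higher. The bin of shortest transcripts had a median log2 ratio of 0.35. The part of transcript length in the ratios of these 6 genes was not tested, so nothing is read from their shared direction. Over the levels of the 12 classes in both libraries (24 points), the genes most like Mt1 were Htra1 (0.94), Pxmp2 (0.93), Clu (0.92), Fam107a (0.91) and Fzd9 (0.90), and those points share the libraries and their free RNA.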

How the data were processed

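The authors deposited raw UMI counts per gene and barcode for 1 wild-type and 1 knockout library, made with the 10x Genomics 3′ chemistry per the labels' protocols. Per the submitters' processing notes, Cell Ranger 4.0.0, Seurat 3.0, R 4.0.3 and mm10 were used. The sources used here give neither the strand handling nor the annotation release. The counts were not normalized.

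The libraries held 57166105 and 75473717 UMIs in 7150 and 9182 barcodes. Barcodes under 500 genes or over 20% mitochondrial UMIs were dropped. Scrublet in scanpy 1.11.5 made 0 and 164 automatic doublet calls, which were not used. In each library the highest scores, 0.8% per 1000 kept cells, were removed instead (212 and 448). A cell was gated to a type when at least 3 and 50% of its markers were above the level in the mean profile of all cells, with a lead of 25 percentage points over the next type. UMIs were summed per class and library and scaled to a total of 1e6 (CPM). Poisson intervals, conditional binomial intervals of ratios and Clopper-Pearson intervals of shares are exact, and the interval step was tested on simulated data. Ratios carry no pseudocount, and ranks and calls use genes with at least 100 UMIs in the class.

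The members and gene lists were chosen with earlier results of these data known. Named genes followed a written rule: the 8 members, up to 4 of the metal list with the largest ratios (10 CPM added) and its 3 most abundant, the 6 genes most like Mt1 over cells and the 5 over classes. Slc39a2, Atp7a, Slc40a1, Malat1 and Top2a are named outside it, after their values were seen. Alternatives were other filters, gates, clusters, scalings and thinning. The software was scipy 1.17.1, leidenalg 0.10.2 and pandas 2.3.3 under Python 3.11.15.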

Additional observations from a re-analysis of the deposited data

How the results depend on the processing

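With 1 library per genotype no library could be left out, and no result has a test. No paired analysis was possible because each genotype had 1 library. In astrocyte-like cells the log2 ratios of Mt1, Mt2 and Mt3 were above 0 under 9 listed alternatives and 4 more chosen after seeing the data. For Mt1, Mt2 and Mt3 in turn, thinning gave 1.29, 1.40 and 0.77, trimmed mean scaling 1.34, 1.43 and 0.83, cells of 5000 to 10000 UMIs 1.82, 1.81 and 1.27, cells under 3% mitochondrial UMIs 1.07, 1.21 and 0.63, and the median of genes of like transcript length taken off 0.86, 0.95 and 0.34. The stricter gate gave 1.20 for Mt1, weighing each cell the same gave 0.68 for Mt3, and a total without metallothioneins and mitochondrial genes gave 1.22 for Mt1 and 0.71 for Mt3. The other values lay within the counting intervals. Slc30a1, Slc30a10 and Slc39a14 were below 0 in all 13, Mtf1 in 12 and Slc39a12 in 10. Of 207 values in 5 other classes, 4 turned a difference of over 1.5-fold: Mt3 to -0.19 in oligodendrocyte-like cells and Slc39a12 to 0.0099 in neuroblast-like cells when each cell was weighed the same, and Mt3 to -0.13 in endothelial-like and -0.17 in pericyte-like cells with clusters in place of the gate. A further 37 moved beyond their counting intervals. Among these were Mt2 from 0.99 to 0.03 in endothelial-like cells and Mt3 from 0.56 to -0.85 in microglia-like cells with thinning, and Mt2 from 1.12 to 0.31 in microglia-like and Mt1 from -0.05 to 0.59 in neuroblast-like cells with each cell weighed the same. Thinned values rest on 1 random draw, and other draws in these classes gave other values. In 1 of them, 1 wild-type microglia-like cell held 23 of 64 Mt3 UMIs. The cause of these moves was not tested. Among the 48 metal genes, 1 was higher past 1.5-fold with no filter on low counts, and 3 with trimmed mean scaling, against 0. Mtf1 and Slc39a14 are limited by depth in every class.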

Other observations

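Ependymal-like cells, which line the ventricles, numbered 17 and 29 and were under the minimum for a described class. Their metallothionein levels were high: Mt1 was at 5399 CPM (5137 to 5671) and 8734 (8433 to 9043), Mt2 at 985 and 1425, and Mt3 at 7023 (6724 to 7333) and 10137 (9813 to 10469.7). Their Slc39a12 was at 44.2 and 65.9 CPM, against 411 and 401 in astrocyte-like cells. Astrocyte-like cells had Mt1 at 3875 and 8960.0 CPM, Mt2 at 584 and 1437, and Mt3 at 3586 and 5808, so Mt3 was higher in ependymal-like cells in both libraries. In the wild type their Mt1 and Mt2 were also above the astrocyte level, and in the knockout both were close to it. The ratio of Mt1 between the libraries was 1.62 in ependymal-like cells (1.52 to 1.72). NK cell-like cells, 18 and 28, had Mt1 at 38.5 CPM from 5 UMIs and 1296 from 208, and Mt3 at 54.0 and 798. The knockout ones also held 38 Mt2, 128 Mt3 and 15 Slc39a12 UMIs, against 2, 7 and 1 in the wild type. The level of the astrocyte genes outside the gate was not taken in this class. The part of free RNA or of doublets in these values was not tested. The 1262 and 849 ungated cells had Mt1 at 1598 and 2311 CPM and Slc30a1 at 48.2 and 23.4.

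Clusters named for astrocytes were not of 1 level. Of 27 clusters made without the 8 genes, 5 were named for astrocytes, and all 5 had more Mt1 in knockout than in wild-type cells. One of them held 453 wild-type and 721 knockout cells with the lowest levels, Mt1 at 1195 and 2041 CPM and Mt3 at 1120 and 1159, and shallow cells (medians of 4909 and 3087 UMIs). The astrocyte-like gate held 631 of these cells. The cluster with the most knockout cells, 293 and 1717 cells, had Mt1 at 5400.1 and 10402 CPM and Mt3 at 4753 and 6737, and 1961 of its cells were gated. A cluster of very shallow cells, 782 and 308 with medians of 1111 and 1774 UMIs, had Mt1 at 4492 and 14899.7 CPM. Of these cells 270 were gated as astrocyte-like, so most of that cluster lay outside the gate. The largest wild-type cluster, 1022 and 823 cells of which 1828 were gated, had Mt1 at 3726 and 7471 CPM and Mt3 at 3525 and 4843. The remaining one, 149 and 615 cells, had Mt1 at 3829 and 7449 CPM and Mt3 at 3470 and 4885. Outside the very shallow cluster, Mt3 was under 1.5-fold higher in each astrocyte cluster. The ratio of Mt1 in each of these was below the 2.31 of the whole astrocyte-like class. Cells of each library were thus unevenly split between clusters. The part of this split in the class ratios was not tested.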
